A study of Macaca fascicularis with 20 samples.

Results

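The miR-30 family was followed through the germinal and neuronal layers of the fetal visual cortex of the crab-eating macaque (Macaca fascicularis). Its members were taken by name. They are listed as mir-30a, mir-30b, mir-30c, mir-30d and mir-30e, 5 of the 828 miRNA names that the deposited count tables share, or 10 of 1656 arms when the 5p and 3p strands of each hairpin are counted apart. All 5 names were found, miR-30c as a single entry with no locus suffix, and all 10 arms passed the filter on low counts that kept 1139 arms.

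The study cut 7 regions from fetal cortex with a UV laser and sequenced their small RNA on the SOLiD platform. The outer subventricular zone (OSVZ) is a second germinal layer that is much expanded in primates, the ventricular zone (VZ) is the layer along the ventricle where radial glia divide, and the cortical plate (CP) is where young neurons settle. In area 17 of the visual cortex the OSVZ was taken as an inner sublayer (OSVZ_17int) and an outer sublayer (OSVZ_17ext), and in area 18 as 1 piece (OSVZ_18), and VZ_17, VZ_18, CP_17 and CP_18 complete the regions. For each region 2 libraries were analysed, replicate 1 from embryonic day 80 and replicate 2 from embryonic day 79, which gave 6 OSVZ, 4 VZ and 4 CP libraries. Another 6 labelled samples were not analysed. No treatment, genotype or sex was given in the labels, and whether the regions of 1 day came from 1 animal is not stated, so the p-values reflect only how far these libraries differ from each other, which may be partly technical.

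MicroRNAs are cut from a hairpin as a pair of strands, the 5p and 3p arms. One strand is usually kept in an Argonaute protein and pairs with messenger RNAs through its seed, a short stretch near its 5′ end, and the other is usually lost. The miR-30 members share the seed of their 5p arms and so share most predicted targets, but differ toward the 3′ end, where miR-30b and miR-30c resemble each other more than they resemble miR-30a, miR-30d and miR-30e. In humans miR-30b lies beside miR-30d, miR-30a beside a copy of miR-30c, and miR-30e with another copy of miR-30c in an intron of NFYC. In other systems miR-30a is known to repress BDNF, a growth factor for neurons, and Beclin 1, a starter of autophagy, and the family is known to act against mesenchymal genes.

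The libraries held 3603478 to 9517217 counts each (median 6729539). The sets of the 2 days differed in make-up: the 3p arm of miR-130b took 2.44% to 25.5% of the counts at day 80 and 0.264% to 0.44% at day 79, and TMM scaling factors ran from 0.567 to 1.51. No miR-30 name showed such an exchange of arms between the days. Layer markers went with the labels: the 2 arms of miR-92b, a progenitor miRNA, summed to 13697 to 25537 CPM (read counts put on a common library size with TMM scaling) in OSVZ, 25991 to 52634 in VZ and 523 to 1097 in CP. The 8 arms of the neuronal markers miR-124, miR-132, miR-137 and miR-138 summed to 418 to 760 CPM in OSVZ, 368 to 907 in VZ and 3411 to 8138 in CP. VZ_17 replicate 2 stood apart by the lowest miR-30c-5p level of all libraries (82.5 CPM), and VZ_18 replicate 1 by the highest erythroid marker sum (334 CPM). This pair was picked with earlier results of these data known, and VZ_17 replicate 2 by the level of a member, so log2 differences without the pair are given as descriptions with no test, and calls made without VZ_17 replicate 2 support nothing.

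All 5 members were detected in every layer, but at very unequal levels, and miR-30d supplied most of the family. MiR-30d-5p ranked 28 of 1656 arms with a mean of 4064 ± 1063 CPM (SD, n = 14 libraries), and miR-30c-5p ranked 59 with 1429 ± 968 CPM. MiR-30e-3p (537 ± 186 CPM), miR-30b-5p (334 ± 256), miR-30a-3p (207 ± 94.7), miR-30a-5p (183 ± 140) and miR-30e-5p (136 ± 102) followed at ranks 90 to 156. From miR-30c-5p down to miR-30e-5p, each arm differed from the next by less than the larger of their SDs. MiR-30c-3p (12.6 ± 7.07 CPM), miR-30b-3p (10.9 ± 4.59) and miR-30d-3p (5.13 ± 4.63) were scarce, and miR-30d-3p had 0 counts in OSVZ_17int replicate 2 and VZ_17 replicate 2. These levels are reads per arm: arms are of nearly the same length, but how evenly the library kit captures them was not measured.

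**Figure D1:**
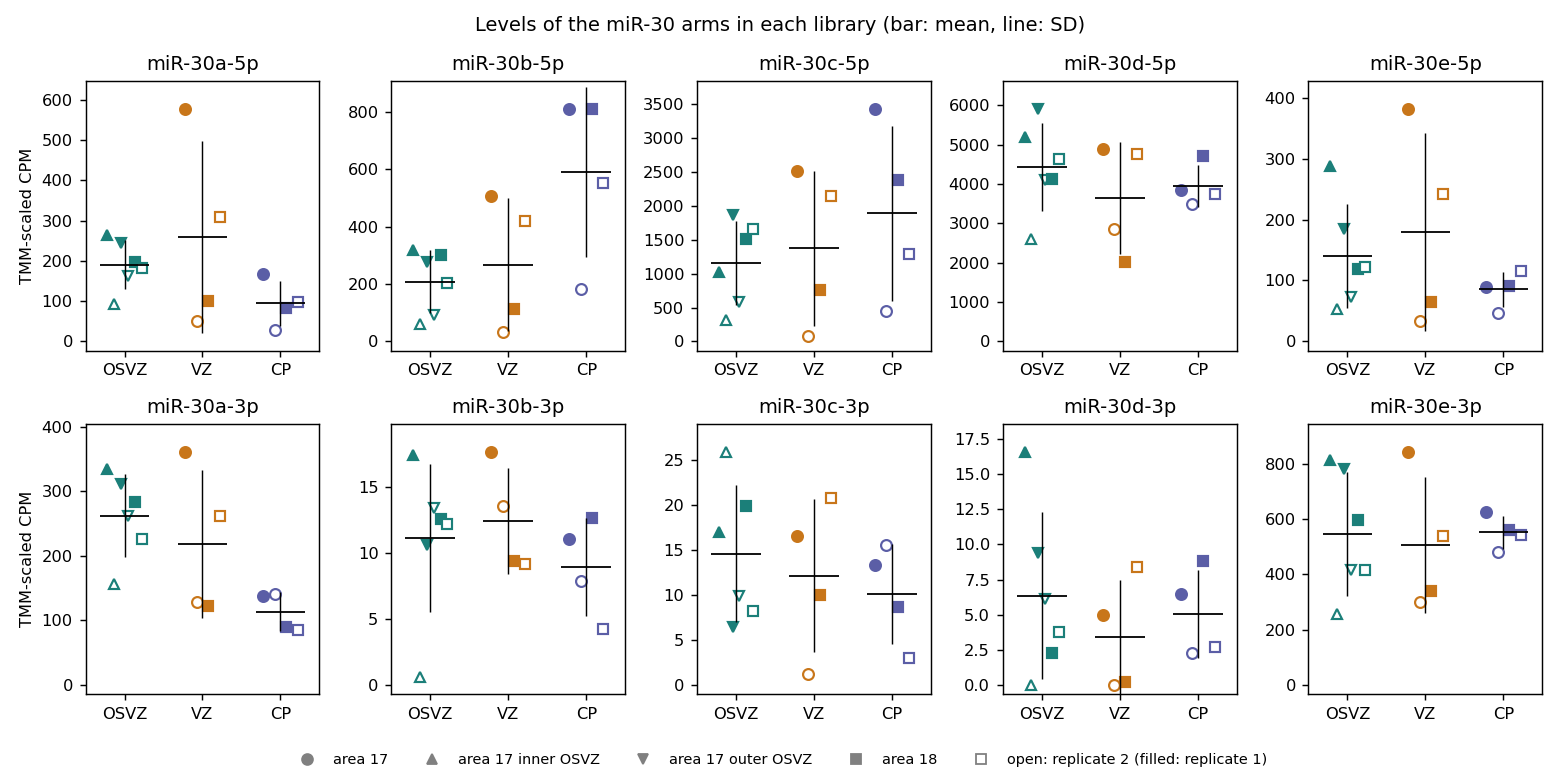
TMM-scaled CPM of each member arm in the 14 libraries, each panel on its own linear axis, with OSVZ to the left, then VZ and CP; points are libraries, horizontal bars means and vertical lines SD. MiR-30d-5p lies above the other arms in every library, 3 of 4 CP libraries are above all others for miR-30b-5p, and miR-30a-3p is the arm whose OSVZ libraries all lie above the CP libraries.

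The family as a whole took 0.468% to 1.17% of all counts. Its 5p arms summed to 6122 ± 1846 CPM in OSVZ (SD, n = 6), 5719 ± 3090 in VZ (n = 4) and 6608 ± 1960 in CP (n = 4). The layers overlapped in this sum, whose lowest values were 3133, 3061 and 4214 CPM and whose highest were 8468, 8859 and 8341 CPM in OSVZ, VZ and CP. In a bulk sample, fewer cells of a type and less RNA per cell cannot be told apart.

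MiR-30a had higher mean levels in both germinal layers than in CP, in both arms, but neither arm passed the test. MiR-30a-3p had a lowest level of 156, a median of 273 and a highest level of 334 CPM in OSVZ, against 138, 140.0, 89.4 and 85.4 CPM in CP_17 replicates 1 and 2 and CP_18 replicates 1 and 2. Every OSVZ library lay above every CP library, so the layers did not overlap. Of the 10 member arms this was the only 1 whose OSVZ and CP libraries did not overlap, while 8.43% of all tested arms did not overlap between OSVZ and CP. The fitted log2 difference for OSVZ against CP was 1.21 ± 0.42 (SE), with an adjusted p of 0.0893 in edgeR's quasi-likelihood test with Benjamini-Hochberg adjustment over 1139 arms, so it did not pass 0.05. Within each day the difference in mean log2 CPM was 1.47 at day 80 and 0.94 at day 79. DESeq2 called it (log2 difference 1.37, adjusted p = 0.00963), as did edgeR with DESeq2 size factors (0.0412), with library totals (0.0297), and with a 10 CPM minimum (0.0134), and so did edgeR without VZ_17 replicate 1 (0.0238), VZ_17 replicate 2 (0.0167) or VZ_18 replicate 1 (0.0351), which act through the shared estimate of spread and scaling. Other settings weakened it: the edgeR adjusted p was 0.181 with no replicate block, and up to 0.317 when each library was left out in turn. The summed mural and mesenchymal markers moved with this contrast: their 10 arms ran from 1419 to 4937 CPM in OSVZ and from 733 to 1175 CPM in CP. Most of that sum was miR-145-5p, with 2102 ± 1319 CPM in OSVZ and 697 ± 190 in CP. MiR-199b-5p went the other way, with 14.1 ± 6.42 and 72.9 ± 14.1 CPM. Of 8 tested arms 2 were higher and 1 lower, where 6.32% of all tested arms were called. MiR-199a-3p was at 0 in every CP library, but it failed the filter on low counts and was not among the tested arms. The part of these markers in the miR-30a-3p values was not tested.

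In VZ, miR-30a-3p had 360 and 127 CPM in VZ_17 and 122 and 261 CPM in VZ_18 (replicates 1 and 2), so 2 libraries lay among the CP values and 2 above them. The fitted difference for VZ against CP was 0.96 ± 0.44, with an edgeR adjusted p of 0.200. It was called by DESeq2 (1.22, adjusted p = 0.0353), by edgeR with a 10 CPM minimum (1.25, 0.0263), and without VZ_17 replicate 2 (1.39, 0.035). Leaving out each library in turn moved it between 0.43, without VZ_18 replicate 2, and 1.46, with edgeR adjusted p-values of 0.035 to 0.607, and without both VZ libraries named above it stood at 1.70.

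The 5p arm, the strand that carries the shared seed, had a wider spread. MiR-30a-5p had a lowest level of 92.5, a median of 190 and a highest level of 263 CPM in OSVZ, against 167, 29.2, 82.6 and 98.1 CPM in CP_17 replicates 1 and 2 and CP_18 replicates 1 and 2. OSVZ and CP overlapped, with CP_17 replicate 1 above OSVZ_17int replicate 2 and OSVZ_17ext replicate 2. In VZ it had 577 and 51.8 CPM in VZ_17 and 100.1 and 308 CPM in VZ_18. The VZ libraries thus held both the highest value and a value below most of CP. Fitted log2 differences were 1.08 ± 0.51 for OSVZ against CP (edgeR adjusted p = 0.299) and 1.47 ± 0.55 for VZ against CP (0.105). The VZ difference depended on single libraries: edgeR called it without VZ_17 replicate 2 (log2 difference 2.0, adjusted p = 0.000958), without VZ_18 replicate 1 (2.13, 0.0079), without CP_17 replicate 1 (2.21, 0.0307) and with no filter on low counts (1.70, 0.0296). Leaving out each library in turn moved it between 0.34 and 2.21, and without both VZ libraries named above it stood at 2.5.

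MiR-30b-5p had lower mean levels in both germinal layers than in CP, again without passing the test. MiR-30b-5p had a lowest level of 61.8, a median of 239 and a highest level of 317 CPM in OSVZ, against 810.2 and 184 CPM in CP_17 and 810.1 and 552 CPM in CP_18 (replicates 1 and 2). Of the CP libraries 3 lay above all OSVZ libraries, and CP_17 replicate 2 lay among them. In VZ it had 506 and 33.0 CPM in VZ_17 and 112 and 420.1 CPM in VZ_18. All 4 VZ libraries lay below the 3 higher CP libraries, and VZ_17 replicate 2 had the lowest value of all. Fitted log2 differences were -1.41 ± 0.48 for OSVZ against CP (edgeR adjusted p = 0.0869) and -1.01 ± 0.52 for VZ against CP (0.252). Within days the difference in mean log2 CPM was -1.44 and -1.60 for OSVZ and -1.77 and -1.43 for VZ, at day 80 and day 79. The OSVZ difference was called by edgeR without VZ_17 replicate 1 (adjusted p = 0.0075), VZ_17 replicate 2 (0.00466), VZ_18 replicate 1 (0.0481), VZ_18 replicate 2 (0.0254) or CP_17 replicate 2 (0.0457). The VZ libraries are not part of this contrast and act through the shared spread and scaling. Other omissions gave edgeR adjusted p-values of up to 0.438. It was not called with no replicate block (edgeR adjusted p = 0.388) or by DESeq2 (log2 difference -1.24). The VZ difference was -2.11 without VZ_17 replicate 1, which leaves VZ_17 replicate 2 as the only library of VZ_17, and -2.43 without VZ_18 replicate 2. Without both VZ_17 replicate 2 and VZ_18 replicate 1 it stood at 0.051 and turned sign.

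MiR-30c-5p, the nearest relative of miR-30b by sequence, varied widely between libraries of 1 region. It had a lowest level of 312, a median of 1267 and a highest level of 1861 CPM in OSVZ, against 3430, 455, 2383 and 1290 CPM in CP_17 replicates 1 and 2 and CP_18 replicates 1 and 2. In VZ it had 2508 and 82.5 CPM in VZ_17 and 764 and 2146 CPM in VZ_18. The layers overlapped throughout, and the libraries of 1 region differed as much as the layers did. The fitted differences were -0.42 ± 0.50 for OSVZ against CP (edgeR adjusted p = 0.794) and -0.30 ± 0.53 for VZ against CP (0.780). Within days the difference in mean log2 CPM was -1.01 and -0.19 for OSVZ and -1.05 and -0.86 for VZ, at day 80 and day 79. Without VZ_17 replicate 1 the VZ difference was -1.89, with VZ_17 replicate 2, which stood apart, as the only library of VZ_17. Without VZ_17 replicate 2 and VZ_18 replicate 1 the VZ difference turned sign, to 0.797.

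MiR-30d-5p, the most abundant member, also had the smallest SD relative to its mean of the 10 arms. It had a lowest level of 2613, a median of 4377 and a highest level of 5904 CPM in OSVZ, against 3845 and 3499 CPM in CP_17 and 4706 and 3747 CPM in CP_18. In VZ it had 4887 and 2861 CPM in VZ_17 and 2029 and 4770 CPM in VZ_18. All 3 layers overlapped. Its fitted differences were 0.16 ± 0.35 for OSVZ against CP (edgeR adjusted p = 0.907) and -0.10 ± 0.37 for VZ against CP (0.911), and the sign of the VZ value turned with the scaling (0.256 on library totals).

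MiR-30e had more reads on its 3p arm. MiR-30e-3p had a lowest level of 255, a median of 507 and a highest level of 815 CPM in OSVZ, against 627 and 481 CPM in CP_17 and 561 and 543 CPM in CP_18. In VZ it had 844 and 301 CPM in VZ_17 and 342 and 541 CPM in VZ_18, so the layers overlapped and CP was the narrowest of them. The fitted differences were -0.12 ± 0.36 for OSVZ (edgeR adjusted p = 0.929) and -0.16 ± 0.39 for VZ (0.857), each against CP, and both turned sign with library totals (0.108 and 0.228). MiR-30e-5p had a lowest level of 53.6, a median of 120 and a highest level of 287 CPM in OSVZ, 381, 33.0, 63.9 and 241 CPM in VZ_17 replicates 1 and 2 and VZ_18 replicates 1 and 2, and 88.6, 46.0, 90.8 and 116 CPM in CP_17 and CP_18 in the same order. Both germinal layers overlapped CP. Its differences were 0.60 ± 0.53 for OSVZ against CP (adjusted p = 0.694) and 1.05 ± 0.57 for VZ against CP (0.282). The VZ difference was called without VZ_17 replicate 2 (1.64, 0.018), and it stood at 2.08 without that library and VZ_18 replicate 1.

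The scarce 3p arms gave little precision. MiR-30b-3p averaged 11.1 ± 5.64 CPM in OSVZ, 12.4 ± 4.01 in VZ and 8.93 ± 3.73 in CP (SD, n = 6, 4 and 4), miR-30c-3p 14.5 ± 7.61, 12.1 ± 8.52 and 10.1 ± 5.57 CPM, and miR-30d-3p 6.35 ± 5.97, 3.39 ± 4.06 and 5.06 ± 3.16 CPM. These layer means differed by less than the spread within layers. MiR-30d-3p rested on 0 to 82 counts a library and its SE was 1.36 for OSVZ and 1.45 for VZ, each against CP.

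In all, edgeR called 0 of 10 member arms in OSVZ against CP, where it called 6.32% of all tested arms, and 0 of 10 in VZ against CP, where it called 7.37%. At an unadjusted edgeR p under 0.05 there were 3 member arms in OSVZ against CP (miR-30a-5p, miR-30a-3p and miR-30b-5p), beside 177 of all 1139 tested arms. In VZ against CP there were 2 (both arms of miR-30a), beside 243 of 1139. DESeq2 called 1 member arm, miR-30a-3p, in each, beside 120 of all arms in OSVZ and 169 in VZ against CP. The VZ count and both DESeq2 counts lie near these shares. Of the 3 arms in OSVZ, 2 come from the same miR-30a hairpin. None of these counts is read as a result about the members. The median difference of the members was 0.28 for OSVZ and 0.12 for VZ, beside -0.20 and -0.22 for all tested arms. Against CP, no member arm lay apart in VZ, where 13.2% of all arms did not overlap. OSVZ and VZ were compared with the same CP libraries.

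**Figure D2:**
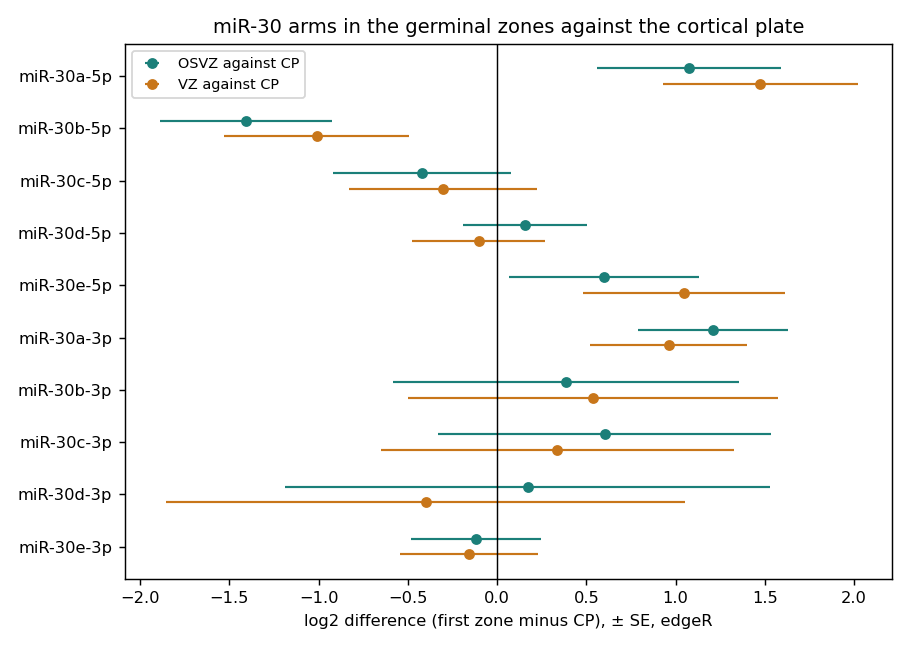
Fitted log2 differences of the 10 member arms, with lines of 1 SE to either side, for OSVZ against CP and VZ against CP; the vertical line at 0 is no difference. The arms of miR-30a lie to the right (0.96 to 1.47) and miR-30b-5p to the left (-1.41 and -1.01), and no arm passed the adjusted p of 0.05.

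Because all members come from the same library, ratios between their 5p arms do not depend on how libraries are scaled, and 3 of them passed their test for OSVZ against CP when libraries were permuted over both days, but 0 when they were permuted within each day. MiR-30a-5p and miR-30b-5p were read about equally often in both germinal layers, while in CP miR-30b-5p prevailed. The count ratio of miR-30a-5p to miR-30b-5p had a lowest value of 0.653 and a highest of 1.75 in OSVZ, and was 1.14 and 1.57 in VZ_17 and 0.897 and 0.734 in VZ_18, against 0.207 and 0.159 in CP_17 and 0.102 and 0.178 in CP_18 (replicates 1 and 2). Neither germinal layer overlapped CP, on either day. On the log2 scale the ratio averaged 0.03 ± 0.55 in OSVZ (SD, n = 6) and -2.68 ± 0.44 in CP (n = 4), a difference of 2.71, or 6.54-fold. A two-sided exact permutation test over the libraries gave p = 0.00476, the smallest that its 210 arrangements allow, and 0.0476 after adjustment over 30 ratio tests (10 pairs of members in 3 comparisons). With the replicate block, permuting the layers only within each day, an alternative added after the data had been seen, the exact p was 0.01, the smallest that 100 arrangements allow, and 0.075 after adjustment, so the ratio no longer passed.

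The other ratios that passed over both days also involved miR-30a or miR-30b. The ratio of miR-30a-5p to miR-30c-5p averaged -2.44 ± 0.65 in OSVZ and -4.22 ± 0.49 in CP, a log2 difference of 1.79 (exact permutation p = 0.00476, adjusted 0.0476, n = 6 and 4). As counts it was 0.110 to 0.296 in OSVZ, 0.131 to 0.628 in VZ and 0.0347 to 0.0761 in CP. These are the members that lie side by side in the human genome, and each germinal layer lay wholly above CP. The ratio of miR-30b-5p to miR-30e-5p averaged 0.56 ± 0.45 in OSVZ and 2.65 ± 0.61 in CP, a difference of -2.09 with the same exact permutation p (n = 6 and 4). MiR-30b-5p had 1.10 to 2.56 reads for each read of miR-30e-5p in OSVZ and 1 to 1.75 in VZ, against 9.13 and 4.0 in CP_17 and 8.91 and 4.75 in CP_18. In both germinal layers the values lay wholly below CP. Within days, both of these ratios had an exact permutation p of 0.01 and an adjusted p of 0.075.

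The remaining 7 pairs overlapped between OSVZ and CP and did not pass. MiR-30a-5p to miR-30d-5p differed by 1.06 (exact permutation p = 0.0238, adjusted 0.0952), miR-30b-5p to miR-30c-5p by -0.92 and miR-30b-5p to miR-30d-5p by -1.65 (both p = 0.0190, adjusted 0.0952). The last of these pairs lies together in the human genome. Within days, miR-30b-5p to miR-30d-5p had an exact permutation p of 0.01, adjusted 0.075, the same as the ratios that passed over both days. The test within days thus did not set those ratios apart from this pair. Adjusted p-values of the other 4 pairs in this comparison ran from 0.214 for miR-30c-5p to miR-30e-5p upward to 0.444 for miR-30d-5p to miR-30e-5p.

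For VZ against CP the same 3 ratios did not overlap and had differences of much the same size, but 4 libraries against 4 allow no exact permutation p under 0.0286, which became 0.0952 on adjustment, so none passed. Within days the 36 arrangements gave these ratios an exact permutation p of 0.0556, adjusted 0.15. MiR-30b-5p to miR-30c-5p and miR-30c-5p to miR-30e-5p, which overlapped between VZ and CP, had the same values. The differences of the 3 ratios that did not overlap were 2.74 for miR-30a-5p to miR-30b-5p, 2.09 for miR-30a-5p to miR-30c-5p and -2.15 for miR-30b-5p to miR-30e-5p. Between OSVZ and VZ 0 of 10 ratios passed or stood apart, with 0 at an unadjusted exact permutation p under 0.05, and the ratio of miR-30a-5p to miR-30b-5p differed by -0.030. Non-overlap is common among ratios: of 21321 ratios between 5p arms of at least 10 CPM, 15.8% did not overlap between OSVZ and CP and 18.2% between VZ and CP, beside 3 of 10 member pairs in each. OSVZ and VZ shared the CP libraries here too. Without VZ_17 replicate 2 and VZ_18 replicate 1, an alternative added for the ratios after the data had been seen, 7 of 10 did not overlap between VZ and CP. Between OSVZ and VZ 3 of 10 did not overlap, and none passed in either comparison. With fewer VZ libraries non-overlap comes more easily, and its share over all ratios was not computed for this setting. For VZ against CP so few libraries allow no exact permutation p under 0.05, so no ratio could pass. These counts are descriptions only.

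The passing of these ratios over both days depended on every OSVZ and CP library. Without any 1 of the OSVZ or CP libraries 0 ratios passed, with adjusted exact permutation p-values of up to 0.143, since fewer libraries leave fewer arrangements. The values themselves moved little: leaving out each library in turn gave 2.5 to 2.84 for miR-30a-5p to miR-30b-5p, 1.58 to 1.95 for miR-30a-5p to miR-30c-5p and -2.31 to -1.91 for miR-30b-5p to miR-30e-5p. The permutation treats libraries of both areas, sublayers and days as exchangeable within a layer. Neuronal and progenitor markers moved with these ratios, as given above, and their part in them was not tested. Reads that match several near-identical members may have been counted for more than 1 of them, or for none, because the treatment of such reads is not given in the sources used here.

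**Figure D3:**
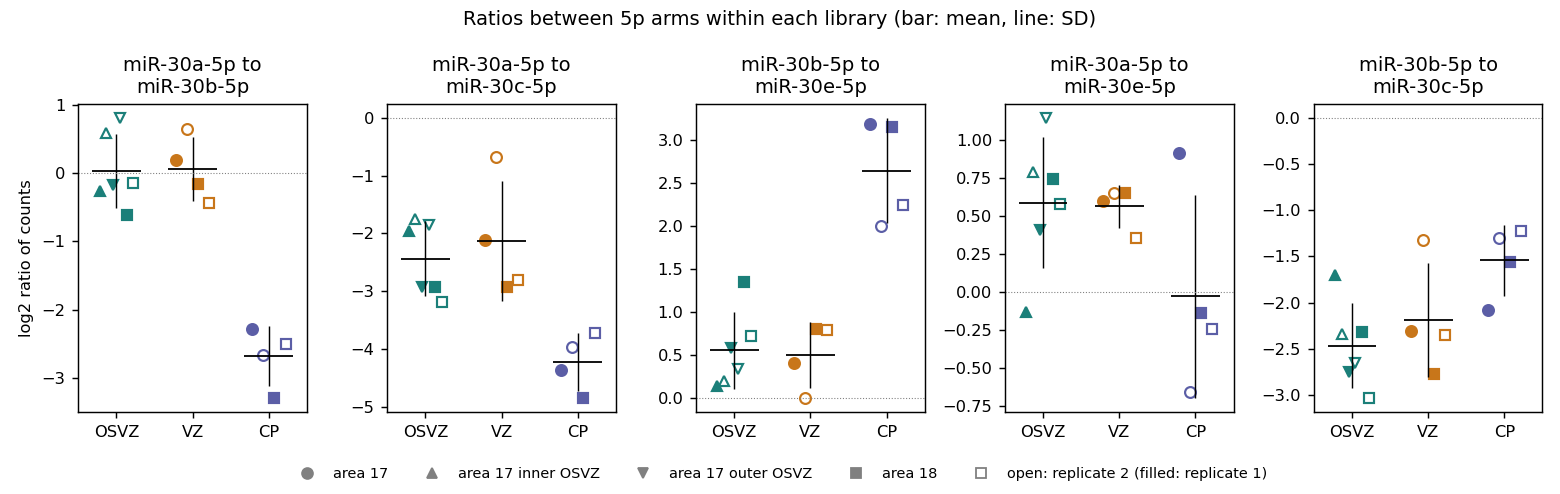
Log2 ratios between the 5p arms of 5 of the 10 pairs of members in each library, with OSVZ left of VZ and CP; points are libraries, horizontal bars layer means and vertical lines SD. For miR-30a-5p to miR-30b-5p and miR-30a-5p to miR-30c-5p all OSVZ and VZ libraries lie above all CP libraries, and for miR-30b-5p to miR-30e-5p all lie below.

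Seen as shares of the family's 5p reads, miR-30d made up 73.7% ± 7.27 in OSVZ, 68.8% ± 17.0 in VZ and 63.0% ± 15.4 in CP (SD, n = 6, 4 and 4), and miR-30c 17.8% ± 6.48, 20.8% ± 12.1 and 25.9% ± 12.7. The layers overlapped for both. MiR-30b made up 3.23% ± 1.24 in OSVZ, 3.94% ± 2.11 in VZ and 8.41% ± 2.70 in CP, miR-30a 3.11% ± 0.36, 3.85% ± 2.01 and 1.35% ± 0.60, and miR-30e 2.18% ± 0.95, 2.63% ± 1.38 and 1.32% ± 0.455. The share of miR-30a ran from 2.68% to 3.72% in OSVZ, from 1.69% to 6.51% in VZ and from 0.692% to 2.01% in CP, so only OSVZ lay wholly above CP. How often such shares lie apart over all miRNAs was not computed. In VZ_17 replicate 2, miR-30d alone made up 93.5% of the family.

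**Figure D4:**
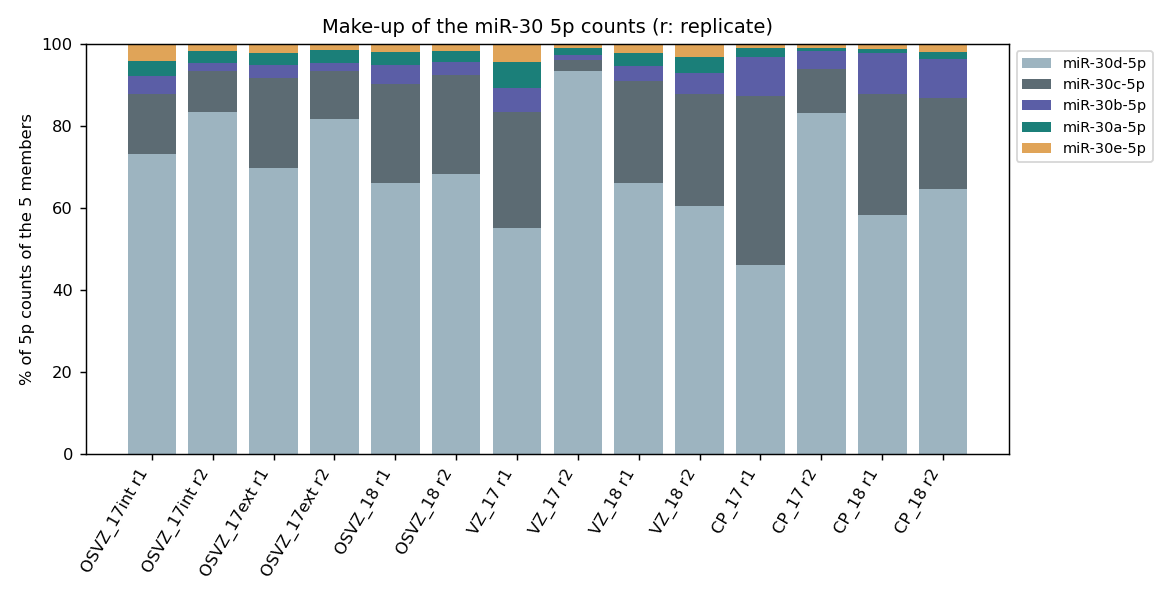
Share of each member in the family's 5p reads, in percent, as stacked bars for the 14 libraries with OSVZ first, then VZ and CP. MiR-30d is the largest part in all libraries, from 46.1% in CP_17 replicate 1 to 93.5% in VZ_17 replicate 2.

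The 3p reads of the family came almost wholly from miR-30e and miR-30a. MiR-30a supplied 32.2% ± 3.97 of them in OSVZ (27.8% to 37.1%), 28.5% ± 2.42 in VZ (25.2% to 31.0%) and 16.4% ± 4.0 in CP (13.1% to 21.6%). MiR-30e supplied 63.8% ± 4.76 in OSVZ (58.3% to 69.9%), 67.7% ± 2.60 in VZ (64.4% to 70.7%) and 80.2% ± 4.63 in CP (74.4% to 85.1%). Both germinal layers lay apart from CP in each share, but the 2 shares make up nearly all of these reads and so mirror each other. How often such shares lie apart over all miRNAs was not computed, and non-overlap was common among the 5p ratios given above. This balance was looked at after the data had been seen and is given as a description with no test.

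Which arm a member is read from was the same in kind across layers. MiR-30b, miR-30c and miR-30d were read mostly from the 5p arm, which took 94.6% ± 3.91, 97.8% ± 2.74 and 99.87% ± 0.111 of both arms in OSVZ, 89.4% ± 12.6, 98.9% ± 0.355 and 99.93% ± 0.0833 in VZ, and 98.1% ± 1.48, 98.9% ± 1.48 and 99.88% ± 0.0640 in CP. The 5p share of miR-30b was lowest in VZ_17 replicate 2 (70.9%) and, among OSVZ libraries, in OSVZ_17ext replicate 2 (87.4%). MiR-30e was read mostly from the 3p arm, with 19.5% ± 4.17 on the 5p arm in OSVZ, 21.9% ± 10.8 in VZ and 13.2% ± 3.69 in CP. MiR-30a used both arms, with 41.5% ± 3.17 on the 5p arm in OSVZ, 47.4% ± 14.1 in VZ and 43.4% ± 17.7 in CP. In CP_17 replicate 2 the 5p arm of miR-30a fell short of the other libraries, with 17.2% of both arms.

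The log2 ratio of 5p to 3p was tested with limma over 412 names that had both arms, and 0 of 5 members passed in any comparison, with 0 at an unadjusted p under 0.05. Over all names 0% were called in OSVZ against CP, 0% in VZ against CP and 0% in OSVZ against VZ, while 28, 48 and 25 names had an unadjusted p under 0.05. For miR-30a the ratio differed by 0.31 ± 0.87 between VZ and CP and by 0.00012 ± 0.815 between OSVZ and CP. The smallest p of the members was that of miR-30b, whose ratio differed by -2.14 ± 1.14 for VZ against CP (limma adjusted p = 0.452) and by -1.50 ± 1.07 for OSVZ against CP (adjusted p = 0.778).

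**Figure D5:**
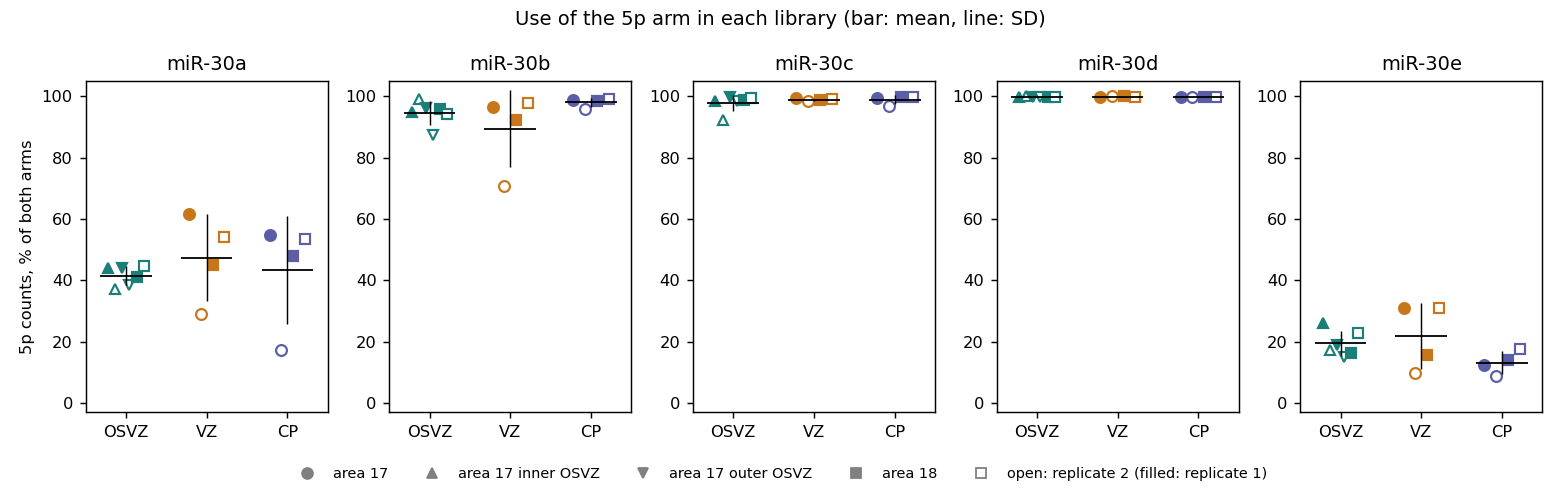
Share of the 5p arm in the reads of both arms of each member, in percent, in the 14 libraries, with OSVZ left of VZ and CP; points are libraries, horizontal bars means and vertical lines SD. MiR-30b, miR-30c and miR-30d lie near the top except miR-30b at 70.9% in VZ_17 replicate 2, miR-30a has means of 41.5% to 47.4% with CP_17 replicate 2 at 17.2%, and miR-30e between 8.71% and 31.1%.

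Between the germinal layers, and between areas and sublayers, no member arm was called. In OSVZ against VZ edgeR called 0 of 10, with 0 at an unadjusted p under 0.05 and 0 by DESeq2, beside 0.0878% of all arms called and 2.11% that did not overlap between OSVZ and VZ, among which no member was found. The smallest p was that of miR-30e-5p, at -0.45 ± 0.52 (edgeR adjusted p = 0.771), and leaving out each library in turn moved it between -0.97 and 0.79. The members' median was -0.039, beside 0.12 for all arms.

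For the inner against the outer OSVZ of area 17, edgeR called 0 of 10 members, with 0 at an unadjusted p under 0.05 and 0 by DESeq2, and 0% of all arms. MiR-30c-5p had the smallest p of the members: it had 1027 and 312 CPM in the inner sublayer and 1861 and 586 CPM in the outer, a fitted difference of -0.88 ± 0.75 (edgeR adjusted p = 0.938). The outer value was higher on each day, and the sublayers overlapped.

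For area 17 against area 18 over all layers, edgeR called 0 of 10 members, beside 0.0878% of all arms. MiR-30c-5p was the only 1 with an unadjusted p under 0.05 (-0.95 ± 0.47, edgeR adjusted p = 0.573), beside 99 of all 1139 tested arms, and DESeq2 called 0. Without VZ_17 replicate 1 its difference was -1.76. In that fit VZ_17 replicate 2, which stood apart, was the only library of VZ_17, so the value is a description only. Leaving out each library in turn moved the difference between -1.76 and -0.33, and with no replicate block it stood at -0.30. No member passed the tests of whether a layer difference itself depended on the area (0 of 10 in each of 3 interactions, 0 at an unadjusted p under 0.05).

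By region, miR-30a-5p averaged 178 CPM in OSVZ_17int, 203 in OSVZ_17ext, 190 in OSVZ_18, 314 in VZ_17, 204 in VZ_18, 98.2 in CP_17 and 90.3 in CP_18. In the same order of regions, miR-30b-5p averaged 189, 185, 252, 269, 266, 497 and 681 CPM. For miR-30a-5p the lowest regions were those of CP and for miR-30b-5p the highest were. Each is a mean of 2 libraries. For miR-30a-5p those of VZ_17, and for miR-30b-5p those of CP_17 (810 and 184 CPM), differed by more than the region means of that arm do.

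Some members varied alike over the 14 libraries once the mean of each day was taken off the log2 CPM. MiR-30b-5p and miR-30c-5p had a Pearson r of 0.88, miR-30a-5p and miR-30e-5p an r of 0.87, and miR-30d-5p and miR-30e-3p an r of 0.86, while miR-30a-5p and miR-30b-5p had an r of 0.28 and miR-30a-3p and miR-30b-5p an r of -0.10. The first 2 of these pairs resemble each other in sequence, while the members of the third are opposite arms that are not alike. Likeness in sequence did not always go with a high r. MiR-30d-5p had an r of 0.72 with miR-30e-5p and 0.56 with miR-30a-5p, beside 0.58 with miR-30b-5p and 0.59 with miR-30c-5p. The arms of miR-30a had an r of 0.76, those of miR-30e 0.77 and those of miR-30b 0.10, the last with a scarce 3p arm. All such values share libraries, depth and scaling and are given as descriptions.

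Outside the family, the arms of at least 10 CPM most like each member over the same 14 libraries were as follows. For miR-30a-5p they were miR-125b-3p (r = 0.85), miR-221-3p (0.847) and miR-26b-5p (0.812). For miR-30b-5p they were let-7f-5p (0.904), miR-27b-3p (0.871) and miR-140-5p (0.86), and for miR-30c-5p miR-186-5p (0.916), miR-181d-5p (0.85) and miR-9-5p (0.841). MiR-30d-5p varied most like miR-619-5p (0.838), miR-195-5p (0.801) and miR-26b-5p (0.774), and miR-30e-5p like miR-26b-5p (0.945), miR-497-5p (0.803) and miR-340-5p (0.801). MiR-26b-5p thus stood near miR-30a, miR-30d and miR-30e, and not among the nearest 3 of miR-30b or miR-30c.

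The miRNAs with which the family shares known roles were read from the same fit. MiR-384, listed by name as a seed relative, was scarce: its 2 arms summed to at most 7.39 CPM in OSVZ, 9.32 in VZ and 2.5 in CP, and 0 of 2 passed in any comparison with edgeR. Both arms were counted, although the seed shared by the family is that of the 5p arms. Of 14 tested arms of other miRNAs known to repress BDNF, 1 was higher and 0 were lower in each germinal layer against CP, a share near the 6.32% and 7.37% of all tested arms called in OSVZ and VZ and so no result about the list. That arm was miR-155-5p, best known from immune cells, with 140 ± 69.7 CPM in OSVZ, 183 ± 118 in VZ and 24.1 ± 4.49 in CP (log2 difference 2.92 ± 0.53 for VZ against CP, edgeR adjusted p = 0.000184). The immune marker list it also belongs to had 1 of 10 arms higher and 0 lower in OSVZ against CP, and 2 higher and 1 lower in VZ against CP, and miR-142-3p was at 0 in every CP library. Its summed level nevertheless lay lower in VZ: 8340 to 18489 CPM in OSVZ and 6316 to 8988 in VZ, against 16036 to 35350 in CP, so VZ and CP did not overlap. Most of that sum was miR-342-3p, the arm that was lower in VZ, with 12131 ± 4536 CPM in OSVZ, 6759 ± 1062 in VZ and 22891 ± 8769 in CP.

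Of 7 tested arms of miRNAs known to repress autophagy genes, 0 passed in OSVZ against CP and 1 was lower in VZ against CP, where 7.37% of all tested arms were called. It was miR-17-3p, the minor strand of a miRNA known for driving proliferation, with 307 ± 107 CPM in OSVZ, 197 ± 64.2 in VZ and 544 ± 240 in CP (-1.46 ± 0.43 for VZ against CP, edgeR adjusted p = 0.0259). Of 10 arms of miRNAs that hold the epithelial state, such as miR-200 and miR-205, 0 passed in either comparison with edgeR, and all 12 listed arms together summed to at most 170 CPM in OSVZ, 217 in VZ and 106 in CP. Of 15 neuronal arms 7 were lower in OSVZ against CP and 6 in VZ against CP, and none was higher. Among them was miR-137-3p, known from maturing neurons, with 41.7 ± 26.2 CPM in OSVZ, 24.5 ± 10.9 in VZ and 813 ± 423 in CP. MiR-138-5p, which acts in dendrites, had 351 ± 129, 326 ± 170 and 4033 ± 1770 CPM in the same layers.

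Other cell types that the pieces could hold were read from their markers. The endothelial arms of miR-126 summed to 1434 to 5288 CPM in OSVZ, 980 to 2794 in VZ and 1547 to 4504 in CP, and 0 of 2 were called. Erythroid arms summed to 18.9 to 103 CPM in OSVZ, 55.9 to 334 in VZ and 27.5 to 126 in CP, with 0 of 4 called. Oligodendrocyte arms were lower in both germinal layers for 2 of 4 and higher in VZ for 1 of 4, and choroid plexus and pigment epithelium arms were lower for 1 of 3, miR-204-5p, which had 593 ± 327 CPM in OSVZ, 649 ± 839 in VZ and 6388 ± 1057 in CP. Their part in the miR-30 values was not tested.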

How the data were processed

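Small RNA libraries of 7 laser-cut regions were used, 14 of 20 labelled samples. Per the labels' protocols, a Qiagen micro kit with DTT gave the RNA. For every miRNA name the authors deposited raw counts of its 5p and 3p arms. The aligner, build, annotation and handling of reads that match several loci are not given in the sources used here. Column names give a region and an arm, and the spelling and choice of regions in a table placed it at day 80 or day 79. Another 12 value columns fit no label and stayed unused, and the 6 samples of another set are not analysed here. The design, written for 20 libraries, was fitted to 14.

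filterByExpr by region kept 1139 of 1656 arms (99.99% of counts). After TMM scaling, edgeR 4.0.16 tested them (quasi-likelihood F test, R 4.3.3) in 1 fit of 7 regions with the replicate set as a block, since the labels give each set its own embryonic day. Areas weigh equally in each layer, as do the OSVZ sublayers within area 17. Adjustment was by Benjamini-Hochberg over 1139 arms, with calls under 0.05. Deviations of same-day libraries correlated with a median r of 0.309 (0.0351 to 0.564, 21 pairs of regions, 20 above 0.1). Arm ratios, with 0.5 counts added, were tested with limma 3.58.1. Ratios between members used exact permutation tests over libraries, without the block in the design and within days as an added alternative (Python 3.11.15, numpy 2.4.6). SDs come from the spread between libraries. Standard errors of edgeR and limma also draw on the spread of the other arms or names tested. In edgeR the residual degrees of freedom were 6 and the median prior degrees of freedom 28.1. Counts without molecular identifiers are not independent molecules. The scripts were tested on simulated data.

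All member arms were named. In the sublayer and area comparisons only called members, or the one with the smallest p, were named, and of each list the arms with the smallest p. Likeness took the nearest 3 arms of at least 10 CPM. Lists were seed relatives, BDNF-repressing, epithelial state, autophagy-repressing and neuronal miRNAs, and markers of endothelial, mural and mesenchymal, erythroid, myeloid and lymphoid, oligodendrocyte, choroid plexus, neuron and progenitor cells. The members and lists were chosen with earlier results of these data known. Alternatives were no replicate block, DESeq2 1.42.0, DESeq2 size factors, library totals, other filters, 5 counts added to ratios, and leaving out libraries. No mature miRNA sequence is shown.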

Additional observations from a re-analysis of the deposited data

Results flagged for a closer look

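Of 75 groups of 4 to 6 libraries in which a single library could be set against the others (Dixon's criterion), 3 held 1 that stood apart, or 4%, and chance gives about 1 in 20. The log2 ratio of miR-30c-5p to miR-30d-5p was -5.11 in VZ_17 replicate 2, while the other VZ libraries lay between -1.41 and -0.96. The log2 ratio of miR-30a 5p to 3p was -2.26 in CP_17 replicate 2, while the other CP libraries lay between -0.12 and 0.28. The log2 ratio of miR-30d 5p to 3p was 15.1 in OSVZ_17int replicate 2, while the other OSVZ libraries lay between 8.28 and 10.8. In that library the 3p count was 0, so the value depends on the 0.5 counts added.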

How the results depend on the processing

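Of 636 recomputed values over 32 results and 23 settings, 47 turned sign, 30 gained a call, 33 lost one and the others kept their direction and side of the threshold. Except where said, the cause was not tested. With no replicate block, arms called numbered 49 (OSVZ against CP), 53 (VZ against CP) and 0 (OSVZ against VZ, areas and sublayers), and miR-30d-3p (OSVZ against CP) stood at -0.027. DESeq2 called 120 (OSVZ against CP), 169 (VZ against CP), 28 (OSVZ against VZ), 2 (sublayers) and 16 (areas). OSVZ against VZ gave 0 calls with DESeq2 size factors or library totals and 6 on arms of at least 10 CPM, and the areas gave 11 with no filter. Without VZ_18 replicate 1 and VZ_17 replicate 2 (for ratios, an alternative chosen after seeing the data), calls numbered 125 (OSVZ against CP), 80 (VZ against CP), 2 (OSVZ against VZ), 6 (sublayers) and 3 (areas). Leaving out each library in turn gave 44 to 100 calls in OSVZ against CP (44 without OSVZ_18 replicate 2), 53 to 120 in VZ against CP, 0 to 24 in OSVZ against VZ (24 without VZ_17 replicate 1), 0 to 1 for the sublayers and 0 to 24 for the areas. For the 5p to 3p ratio in VZ against CP, 1 name was called with 5 counts added, 1 on arms of at least 10 CPM and 0 to 2 when libraries were left out, and in OSVZ against CP 1 on arms of at least 10 CPM. Ratios between members passing in OSVZ against CP numbered 0 to 3 when libraries were left out, because fewer arrangements remain, and 0 with the replicate block (layers permuted within each day, an alternative chosen after seeing the data; smallest adjusted exact permutation p 0.075).

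Signs also turned. With DESeq2, DESeq2 size factors, library totals, no filter, arms of at least 10 CPM and both VZ libraries left out, miR-30d-5p in VZ against CP stood at 0.145, 0.145, 0.256, 0.133, 0.188 and 0.534, miR-30e-3p in VZ against CP at 0.106, 0.106, 0.228, 0.0646, 0.141 and 0.507, and miR-30e-3p in OSVZ against CP at 0.0435, 0.0435, 0.108, 0.0114, 0.0448 and 0.019. With both VZ libraries left out, miR-30b-5p, miR-30c-5p and miR-30d-3p in VZ against CP stood at 0.051, 0.797 and 0.817, miR-30c-3p and miR-30e-5p in the same comparison at 1.28 and 2.08, miR-30e-5p in OSVZ against VZ at -1.35, and the miR-30d 5p to 3p ratio in OSVZ against VZ at 0.988. Leaving out each library in turn gave, for OSVZ against CP, -0.39 to 0.65 for miR-30b-3p, -0.87 to 0.19 for miR-30c-5p, -1.81 to 0.63 for miR-30d-3p and -0.28 to 0.0597 for miR-30e-3p. For VZ against CP it gave -2.43 to -0.33 for miR-30b-5p, -1.08 to 0.97 for miR-30c-3p, -1.89 to 0.39 for miR-30c-5p, -3.72 to 0.33 for miR-30d-3p, -0.62 to 0.43 for miR-30d-5p, -0.64 to 0.33 for miR-30e-3p and -0.16 to 1.65 for miR-30e-5p. For OSVZ against VZ it gave -0.97 to 0.79 for miR-30e-5p and -2.96 to 0.23 for the miR-30d arm ratio. Scaling moved the median of all arms in VZ against CP from -0.22 (TMM) to 0.023 (DESeq2 size factors) and 0.21 (library totals), and in OSVZ against CP from -0.20 to -0.045 and 0.035. Few counts limit the 3p arms of miR-30b, miR-30c and miR-30d.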
